A study of Homo sapiens with 18 samples.

Results

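LIN28B overexpression in DLD-1 cells was compared with the empty vector (EV) across the transcriptome, in 3 LIN28B and 3 EV libraries out of 18 in the series. DLD-1 is an established human colorectal adenocarcinoma line, known for an activating PIK3CA mutation and for defective mismatch repair. Both groups grew in DMEM with fetal bovine serum and antibiotics, neither received a drug, and poly(A) RNA was sequenced. A further DLD-1 group, LIN28B cells given 5 µM of the PI3K alpha inhibitor alpelisib, is described below only by its levels, though it enters the model that sets the spread. Genes were kept where at least 3 of the 6 libraries had a TPM of 1 or more (TPM is a length-normalised abundance with the same total in every library), which left 15194 of 61806 listed genes. The labels name neither the vector nor its promoter, nor whether the LIN28B cells were a pool or 1 clone, and nothing in the labels states that replicates were separate cultures. P-values therefore measure only the spread between libraries within groups, pooled over all 18 libraries of the series, and that spread may be technical.

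LIN28B is an RNA-binding protein of embryonic tissue that is re-expressed in some colorectal cancers. It binds the precursors of let-7 microRNAs and blocks their maturation, and it also binds many mRNAs directly. Mature let-7 represses mRNAs whose 3′ untranslated regions (UTRs) pair with its seed, among them the oncofetal genes HMGA2 and the IGF2BP family. Mature microRNAs are not measured in poly(A) libraries, so only the mRNA side of this pathway is described.

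LIN28B itself (ENSG00000187772; GRCh38, chr6:104936616-105083332, plus strand) measured 493, 483 and 408 TPM in LIN28B libraries, against 2.74, 1.17 and 1.38 TPM in EV libraries. The groups did not overlap, and the log2 change was 7.42 ± 0.15 (SE; limma on log2(TPM + 1), adjusted p = 3.08e-15). The labels do not say which part of the transcript the construct carries, so this level per length cannot be set against that of the endogenous gene. Its paralog LIN28A was listed at 0.0537 TPM or less in each of the 6 libraries and was not tested. Of the 13 colorectal epithelial markers at 1 TPM or more among 14 checked, EPCAM averaged 685 TPM in LIN28B libraries and 725 TPM in EV libraries, and CDX2 averaged 227 TPM in LIN28B libraries and 254 TPM in EV libraries. The lineage factor CDX1 was the exception, with means of 0.0534 TPM in LIN28B libraries and 0.144 TPM in EV libraries. Of the 13 markers tested, 11 had a negative log2 change and 2 a positive one, with a median of -0.17. At an adjusted p under 0.05 (limma), 3 were lower (23.1%, beside 1.76% of all genes) and 1 higher (7.69%, beside 1.80%). KRT8 and KRT18 were among the 3 lower. CEACAM5 and CDH17, chosen after their values were seen, had log2 changes of -0.81 and -0.43. These are given as sizes and not as calls, and not both genes were called.

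Mitochondrial transcripts took 10.3, 10.4 and 11.1% of TPM in LIN28B libraries and 9.23, 10.2 and 11.8% in EV libraries (exact two-sided permutation test, p = 0.8, where 0.1 is the smallest p that 3 libraries against 3 can give). Ribosomal protein mRNAs took 17.7 to 18.8% in LIN28B libraries and 18.6 to 19.4% in EV libraries (exact permutation test, p = 0.2). Between 23010 and 23776 genes were above 0 TPM in each library. Pearson's r of log2(TPM + 1) across genes was 0.9774 to 0.9838 within groups and 0.972 to 0.9789 between them. The depth of each library cannot be read from TPM and is unknown. In bulk RNA, fewer cells that express a gene and less of its RNA per cell cannot be told apart.

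With limma, 542 genes were called at an adjusted p under 0.05 (3.57% of genes tested), 274 higher in LIN28B (1.80%) and 268 lower (1.76%). Changes were mostly moderate. The median size was 0.55 on the log2 scale among genes called higher and 0.62 among those called lower, and 29 and 25 genes reached 1 or more. Libraries of the 2 groups did not overlap at 2216 genes that lay above EV (14.6%) and 1694 that lay below (11.1%). Among called genes, 273 of the 274 higher and all 268 lower did not overlap, so lack of overlap adds little to a call. By chromosome, the median log2 change lay between -0.006 and 0.061. At an unadjusted p under 0.05, 2453 genes passed (16.1%). Leaving out any 1 of the 6 libraries left 65 to 121 genes called higher and 110 to 138 called lower. Of the 542 genes, 382 were also called when the 6 libraries were fitted alone. Among genes named below as called, that fit lost LRIG3, DNA2, CCNJ, DDIT3, SLC7A11, CEBPG, DNAJB11, NOP56, VIL1, CLDN3, RPS6KB2, IGFL1P1, LY6G6E, GPC1-AS1, CYP4F11 and the histones H3C7 and H2BC18. A set of 120 genes, 43 higher and 77 lower, was called under each of the 15 alternative settings tried. Among these settings was a stricter filter on TPM, so genes too low for it could not enter the set. KRT34, for example, was called under all 14 alternatives that included it.

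**Figure D1:**
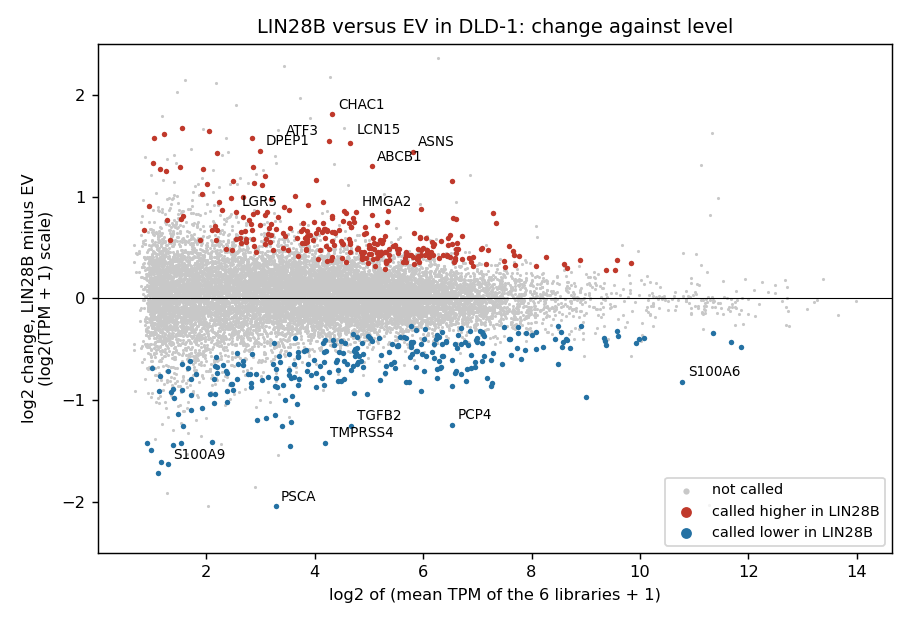
Log2 change of LIN28B over EV on the log2(TPM + 1) scale (vertical axis) against the log2 of the mean TPM of the 6 DLD-1 libraries plus 1 (horizontal axis), 1 point per gene. The 274 genes called higher are red, the 268 called lower are blue, and the LIN28B gene itself, at 7.42, lies off the top of the axis.

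Among the mRNAs known as let-7 targets, 7 of 42 tested were called higher (16.7%, beside 1.80% of all genes) and 0 lower. The median log2 change was 0.23, beside 0.02 for all genes. HMGA2 (chr12:65824131-65966295, plus strand), which encodes an architectural chromatin protein of fetal tissue, had 37.6, 34.1 and 30.4 TPM in LIN28B libraries, against 18.1, 19.5 and 17.5 TPM in EV libraries. Every LIN28B library lay above every EV library, and the log2 change was 0.85 ± 0.113 (SE; limma, adjusted p = 0.000644). The mRNA-binding protein gene IGF2BP2 had 85.6, 83.7 and 78.4 TPM in LIN28B libraries, against 62.7, 61.3 and 58.8 TPM in EV libraries. It rose by a log2 change of 0.43 ± 0.0756 (SE; limma, adjusted p = 0.00503), again without overlap, and both genes were called under all 15 alternatives.

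The other called members were E2F5, a cell cycle transcription factor, at 0.61 (log2 change), LRIG3 at 0.65, and, chosen after their values were seen, DNA2, a replication nuclease and helicase, at 0.55, the cyclin CCNJ at 0.58 and the cell cycle phosphatase CDC25A at 0.82. E2F5, DNA2, CCNJ and CDC25A are also genes of the cell cycle or DNA replication. The mitosis and replication lists described below rose too (medians 0.43 and 0.42), and the part of let-7 in the rise of these genes was not tested. The classic targets differed less. HMGA1 averaged 428 ± 33.6 TPM in LIN28B libraries and 366 ± 25.8 TPM in EV libraries (SD, n = 3 each; limma, adjusted p = 0.479), and MYC averaged 56.9 ± 2.83 and 46.4 ± 7.61 TPM in LIN28B and EV libraries (limma, adjusted p = 0.463). IGF2BP3 had a log2 change of 0.12 and DICER1 of 0.31, and neither was called. IGF1R lay the other way, with 5.91, 5.74 and 5.69 TPM in LIN28B libraries against 9.17, 11.4 and 6.73 TPM in EV libraries (limma, adjusted p = 0.0553). The count of called targets was 2, 4 and 3 without LIN28B replicate 1, 2 or 3, and 5, 2 and 2 without EV replicate 1, 2 or 3, where 1 was called lower without EV replicate 3.

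The let-7 family shares a seed, so any member can pair with the same site. RefSeq (GRCh38.p14) lists let-7a-5p at 3 loci, among them chr9:94175962-94175983 (plus strand). It places let-7b-5p at chr22:46113691-46113712 (plus), let-7g-5p at chr3:52268336-52268357 (minus) and miR-98-5p at chrX:53556299-53556320 (minus). The seed, bases 2 to 8, is in capitals, and it was the same at all 12 let-7 and miR-98 loci read.
let-7a-5p: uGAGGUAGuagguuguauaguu
let-7b-5p: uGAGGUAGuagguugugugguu
let-7g-5p: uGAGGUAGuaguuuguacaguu
miR-98-5p: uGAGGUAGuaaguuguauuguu

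The matching DNA strings were CTACCTCA (an 8mer site, which is the reverse complement of the seed followed by A) and its 7-base parts CTACCTC and TACCTCA, each read on the mRNA strand of the 3′ UTR. Windows around 8mers of 4 called targets, with the site in capitals, show the match in place (GENCODE 29 transcripts, GRCh38). They lie at chr12:65963299-65963328 (HMGA2, plus strand), chr3:185644212-185644241 (IGF2BP2, minus), chr12:58872524-58872553 (LRIG3, minus) and chr10:68414116-68414145 (DNA2, minus). The HMGA2 3′ UTR also held 3 sites of CTACCTC and 3 of TACCTCA outside the 8mer, and CDC25A held no 8mer.
HMGA2: ccaacgttcgatttCTACCTCAgcagcagt
IGF2BP2: acacacagaagaagCTACCTCAggtgtttt
LRIG3: aaaagcttaacataCTACCTCAagtgaact
DNA2: taaaatttttatttCTACCTCAtgtgtttt

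Across all genes with a 3′ UTR, the shift with these sites was small. The 450 genes with an 8mer had a median log2 change of 0.071, against 0.048 for 1452 genes with 7-base sites only and 0.011 for 10092 genes without a site. Among UTRs of 2000 bases or more, where the classes were closer in length, the medians were 0.068, 0.044 and 0.010. Of the 8mer genes, 13 were called higher (2.89%, beside 2.08% of all genes with a 3′ UTR) and 2 lower (0.444%, beside 2.04%). Of 13 genes with 2 or more 8mers, 0 were called in either direction. Read the other way, an 8mer stood in 5.22% of 249 genes called higher, in 0.816% of 245 called lower and in 3.75% of all 11994 genes. Besides HMGA2, IGF2BP2, LRIG3 and DNA2, the called 8mer genes included, chosen after their values were seen, PLCXD1 (log2 change 0.86) and the neutral amino acid transporter SLC1A4 (0.76), and, among those lower, SYT7 (-0.78). The classes share the 6 libraries and were not tested.

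**Figure D2:**
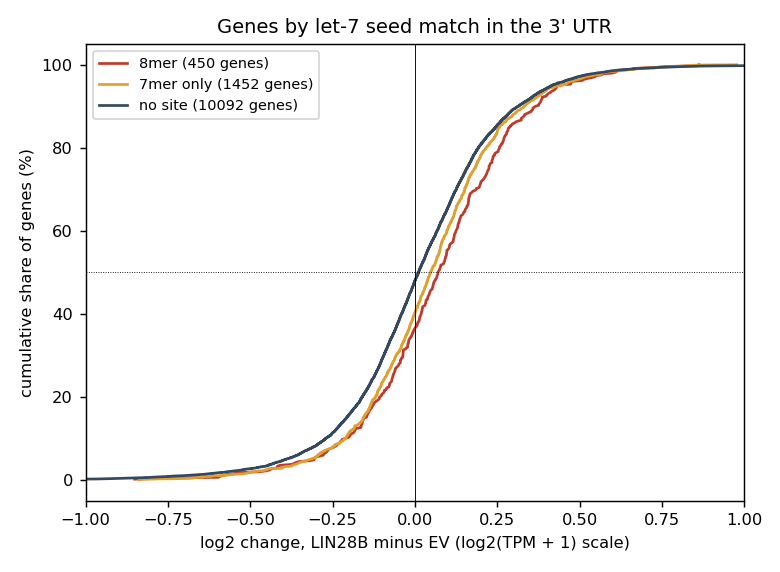
Cumulative share of genes (vertical axis, %) by log2 change of LIN28B over EV (horizontal axis, log2(TPM + 1) scale), for genes with an 8mer let-7 seed match in the 3′ UTR, with 7-base matches only, and with neither. The 3 curves lie close together, with medians of 0.071, 0.048 and 0.011.

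Of the let-7 processing machinery, no gene other than LIN28B was called among 18 tested in the LIN28 and let-7 axis. DICER1, the RNase that cuts the precursors, had 22.8, 22.4 and 20.2 TPM in LIN28B libraries, against 17.3, 18.9 and 16 TPM in EV libraries (limma, adjusted p = 0.262). Chosen after their values were seen, the processing genes DROSHA and DGCR8 and the uridylyltransferase TUT4, which LIN28 proteins can recruit to the precursor, had log2 changes of 0.02, -0.04 and 0.26. MIRLET7BHG, a long RNA that hosts let-7 genes, averaged 56.8 TPM in LIN28B libraries and 52.3 TPM in EV libraries.

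Many genes of the amino acid response rose. ATF4 is a transcription factor that cells translate more when amino acids run short or the endoplasmic reticulum is stressed, and its targets import and make amino acids. Of 34 tested members of this list, 18 were called higher (52.9%, beside 1.80% of all genes) and 0 lower, and the median log2 change was 0.58. ASNS (chr7:97852118-97872542, minus strand), the enzyme that makes asparagine, had 82.5, 55.5 and 105 TPM in LIN28B libraries, against 26.3, 23.6 and 36.3 TPM in EV libraries. CHAC1, which breaks down glutathione, had 42.3, 14.1 and 36 TPM in LIN28B libraries, against 6.15, 6.33 and 9.59 TPM in EV libraries. For both genes the groups did not overlap, and LIN28B replicate 2 was the lowest of its group. Their log2 changes were 1.44 ± 0.186 for ASNS (SE; limma, adjusted p = 0.000608) and 1.81 ± 0.324 for CHAC1 (SE; limma, adjusted p = 0.00577).

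The stress factor ATF3 had 40.6, 16.8 and 26.0 TPM in LIN28B libraries, against 8.88, 5.47 and 11.3 TPM in EV libraries, with a log2 change of 1.55. SLC7A5, the large neutral amino acid transporter, had 90.8, 66.4 and 82.4 TPM in LIN28B libraries, against 43.5, 43.5 and 40.9 TPM in EV libraries (log2 change 0.88 ± 0.121 SE; limma, adjusted p = 0.00088). Further transporters, chosen after their values were seen, rose too: SLC7A1 for cationic amino acids by 0.92, the cystine exchanger SLC7A11 by 0.72 and SLC1A5 for glutamine by 0.54 (log2 changes). SLC7A11 was called under 6 of 15 alternatives and was lost in the fit of the 6 libraries alone (limma, adjusted p = 0.0685). ATF4 mRNA itself had 682, 535 and 641 TPM in LIN28B libraries, against 538, 493 and 509 TPM in EV libraries. These overlapped, and the log2 change of 0.26 was not called (limma, adjusted p = 0.0888). TRIB3, another known ATF4 target, had a log2 change of -0.08 and was not called. DDIT3, a factor of stress-induced cell death, had a log2 change of 0.86 and was called (limma, adjusted p = 0.0182), but not in the fit of the 6 libraries alone (limma, adjusted p = 0.0579), 1 of 6 alternatives of 15 that lost it.

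LIN28B replicate 2 stood nearest to EV for this list. The median log2 difference of its members from the EV mean was 0.78, 0.28 and 0.73 in the LIN28B libraries, against 0.02, -0.02 and -0.04 in the EV libraries. The count of called members was 8, 20 and 9 without LIN28B replicate 1, 2 or 3, and 11 without each EV library. In the 6-library fit it was 12. ASNS, CHAC1, ATF3, PSAT1 and SLC7A5 were called under all 15 alternatives.

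The serine and folate enzymes and the tRNA synthetases moved with this list, with which they share members. Of 20 tested enzymes of serine, glycine and folate metabolism, 5 were called higher (beside 1.80% of all genes) and 1 lower (beside 1.76%). The list median was 0.37. PSAT1, an aminotransferase of serine synthesis, had 139, 96.5 and 149 TPM in LIN28B libraries, against 59.3, 54.7 and 54.9 TPM in EV libraries. It rose without overlap, by 1.15 ± 0.128 (SE, log2; limma, adjusted p = 0.000148). PHGDH, the first enzyme of serine synthesis, rose by 0.74, and the folate enzyme MTHFD1 by 0.46. ALDH1L1, which oxidizes formyl-tetrahydrofolate, was the 1 called lower, with 4.96, 5.99 and 4.84 TPM in LIN28B libraries against 14, 15.3 and 12.5 TPM in EV libraries (log2 change -1.25 ± 0.165 SE; limma, adjusted p = 0.000622). The count called higher was 1, 4 and 2 without LIN28B replicate 1, 2 or 3, and 5, 5 and 1 without EV replicate 1, 2 or 3.

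Of 20 aminoacyl-tRNA synthetases, 7 were called higher (35.0%, beside 1.80% of all genes) and 0 lower, with a median log2 change of 0.30. The 4 with the smallest p were TARS1 for threonine (log2 change 0.49), YARS1 for tyrosine (0.61), MARS1 for methionine (0.78) and GARS1 for glycine (0.79). GARS1 had 134, 102 and 119 TPM in LIN28B libraries, against 72.1, 64.0 and 67.1 TPM in EV libraries. No synthetase passed without LIN28B replicate 1, 7 without replicate 2 and 1 without replicate 3, and 5, 3 and 1 did without EV replicate 1, 2 or 3. The unfolded protein response has a kinase, PERK, that also acts upstream of ATF4. Of 23 genes of this response, 1 was called higher (4.35%, beside 1.80% of all genes), the cochaperone DNAJB11 (log2 change 0.34). Leaving out any 1 of the 6 libraries brought that count to 0. The median was 0.04.

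The composite element that ATF4 binds together with C/EBP factors was looked for as TGATGNAA on either strand in the 250 bases before RefSeq gene starts (GRCh38.p14). A gene was counted where the element stood before any of its listed starts, so genes with more starts had more chances. Of 10662 tested genes, 237 held it (2.22%), as did 18 of 224 genes called higher (8.04%) and 4 of 191 called lower (2.09%). In the ATF4 list 7 of 29 genes held it, and 3 of 16 synthetase genes did. None of 32 mitosis and 40 DNA replication genes held it, which says only that these letters are not in those windows. The windows of 30 bases below, given on the gene's strand with the element in capitals, show its 2 orientations. They lie at chr7:97872458-97872487 (ASNS, minus), chr19:33374060-33374089 (CEBPG, plus), chr15:40953251-40953280 (CHAC1, plus) and chr7:30594834-30594863 (GARS1, plus). CEBPG, chosen after its values were seen, is a C/EBP partner of ATF4 and rose by 0.58 (log2).
ASNS: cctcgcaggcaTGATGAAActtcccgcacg
CEBPG: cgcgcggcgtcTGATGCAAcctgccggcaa
CHAC1: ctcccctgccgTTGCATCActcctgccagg
GARS1: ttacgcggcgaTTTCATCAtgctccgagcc

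**Figure D3:**
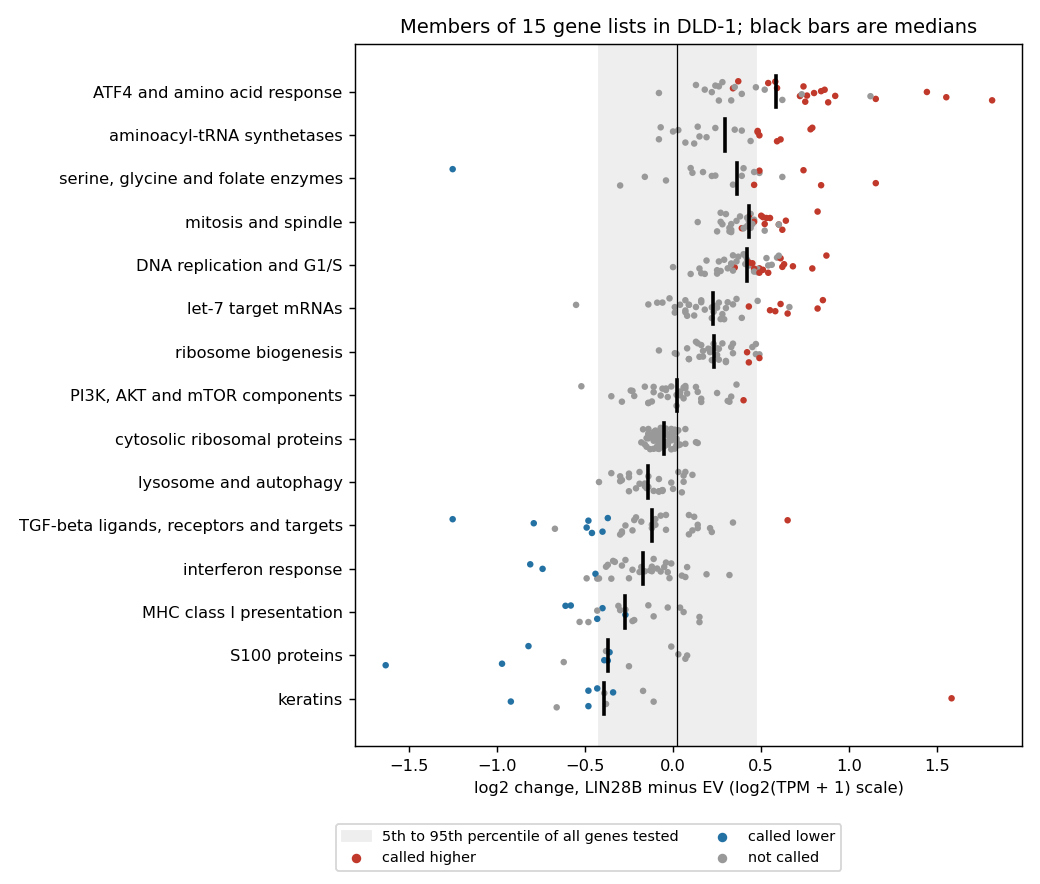
Log2 change of LIN28B over EV (horizontal axis, log2(TPM + 1) scale) for the tested members of 15 gene lists, 1 point per gene. Black bars are list medians, and the grey band spans the 5th to 95th percentile of all genes, -0.42 to 0.47. The ATF4 list lies farthest to the right (median 0.58) and the keratins farthest to the left (median -0.39).

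All 38 mitosis and spindle genes had a positive log2 change, and 34 had LIN28B libraries above EV libraries without overlap (89.5%, beside 14.6% of all genes). Of the 38, 12 were called higher (31.6%, beside 1.80% of all genes) and 0 lower. The list median was 0.43. TTK, a kinase of the spindle checkpoint, had 43.3, 40.8 and 40.7 TPM in LIN28B libraries, against 22.4, 23.0 and 24.1 TPM in EV libraries. It rose by 0.82 ± 0.117 (SE, log2; limma, adjusted p = 0.00116). AURKB, the chromosomal passenger kinase, rose by 0.62, TOP2A, which untangles DNA, by 0.50, and NDC80 of the kinetochore by 0.55. Counts depended on the libraries and the fit: 3, 7 and 6 without LIN28B replicate 1, 2 or 3, 4, 4 and 6 without EV replicate 1, 2 or 3, and 22 with the 6 libraries alone.

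Of 47 DNA replication and G1/S genes, 14 were called higher (29.8%, beside 1.80% of all genes) and 0 lower. LIN28B libraries lay above EV libraries without overlap at 32 of them, beside 14.6% of all genes, and the median was 0.42. ORC6 of the origin recognition complex had 34.4, 31.2 and 30.1 TPM in LIN28B libraries, against 18.9, 17.7 and 17.5 TPM in EV libraries (log2 change 0.79 ± 0.0994 SE; limma, adjusted p = 0.000543). E2F2, a transcription factor that drives S phase entry, rose by 0.87, the checkpoint adaptor CLSPN by 0.63 and the replication kinase CDC7 by 0.62. The count was 5, 7 and 9 without LIN28B replicate 1, 2 or 3, and 7, 10 and 5 without EV replicate 1, 2 or 3. Ribosome biogenesis factors had a median of 0.23 with 3 of 35 called higher (8.57%), the nucleolar proteins NOP56, DDX21 and LYAR. The count was 1 without LIN28B replicate 3 and 0 without any other library. Cytosolic ribosomal proteins had 0 of 77 called in either direction with limma, also in the fit of the 6 libraries alone. Their median was -0.05. Without overlap, 2 lay above EV and 19 below, beside 14.6% and 11.1% of all genes.

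PSCA had the largest fall among the genes named by size, and TMPRSS4 and PCP4 fell with little spread. PSCA (chr8:142670308-142682724, plus strand), a GPI-anchored surface antigen, had 2.10, 2.55 and 3.89 TPM in LIN28B libraries, against 14.7, 16.7 and 12.4 TPM in EV libraries. Every LIN28B library lay below every EV library, with a log2 change of -2.04 ± 0.199 (SE; limma, adjusted p = 3.6e-05). TMPRSS4 (chr11:118077012-118121890, plus strand), a membrane-bound serine protease, had 8.09, 9.41 and 9.37 TPM in LIN28B libraries, against 24.4, 26.4 and 25.9 TPM in EV libraries. The log2 change was -1.42 ± 0.132 (SE; limma, adjusted p = 2.12e-05), without overlap. PCP4, a calmodulin-binding peptide, had 58.2, 52.2 and 52.8 TPM in LIN28B libraries, against 143, 125 and 122 TPM in EV libraries (-1.24 ± 0.081 SE, log2; limma, adjusted p = 2.52e-07). All 3 were called under all 15 alternatives, as were SEMA5A, an axon guidance factor (log2 change -1.21), CYBRD1, a ferric reductase (-1.20), and MMP14, a membrane-type matrix metalloproteinase (-1.15).

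The rest of the 15 largest falls were mostly low. S100A9 measured 0.289, 0 and 0.261 TPM in LIN28B libraries, against 2.37, 3.68 and 2.05 TPM in EV libraries, and FAM3D measured 0, 0.792 and 0.41 TPM in LIN28B libraries against 4.07, 1.69 and 2.75 TPM in EV libraries. IGFL1, an IGF-like secreted protein, had 0.532, 0.544 and 0.641 TPM in LIN28B libraries and 3.05, 3.03 and 3.61 TPM in EV libraries. Log2 changes on the log2(TPM + 1) scale understate such genes. LY6G6C and LY6G6E, relatives of PSCA in the LY6 family, fell by 1.18 and 1.41 on the log2 scale. LY6G6E was called under 5 of 14 alternatives and was lost in the fit of the 6 libraries alone (limma, adjusted p = 0.0644). IGFL1P1 is a pseudogene copy, and GPC1-AS1 an antisense transcript, and since the use of strand and of shared reads in the counting was not given, their changes of -1.45 and -1.14 (log2) are uncertain.

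Among the 15 largest rises, ABCB1, LCN15 and DPEP1 were the most even. ABCB1 (chr7:87503633-87713323, minus strand), the drug efflux pump P-glycoprotein, had 46.8, 42.1 and 49.9 TPM in LIN28B libraries, against 17.3, 20.6 and 17.0 TPM in EV libraries (log2 change 1.30 ± 0.0933 SE; limma, adjusted p = 7.53e-07). LCN15, a lipocalin, had 40.5, 34.1 and 33.5 TPM in LIN28B libraries, against 12.7, 8.34 and 15.5 TPM in EV libraries (1.53 ± 0.155 SE, log2; limma, adjusted p = 5.26e-05). DPEP1, a membrane dipeptidase, had 10.9, 10.7 and 10.3 TPM in LIN28B libraries, against 4.04, 3.43 and 2.44 TPM in EV libraries (1.45 ± 0.151 SE, log2; limma, adjusted p = 6.98e-05). All 3 were called under all 15 alternatives, while lack of overlap between groups was part of the rule that chose them. KRT34, a hair-type keratin, had 2.37, 2.5 and 1.42 TPM in LIN28B libraries, and was listed at 0, 0.0673 and 0 TPM in EV libraries. TNFRSF9, a costimulatory receptor of T cells, had a log2 change of 1.43. The histone genes H3C13, H2AC12, H2BC18 and H3C7, the shared-exon gene UGT1A1, and the antisense RNAs EVX1-AS and SMIM2-AS1 also met the rule, and their values are uncertain because reads can be shared with near-identical copies or the opposite strand.

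**Figure D4:**
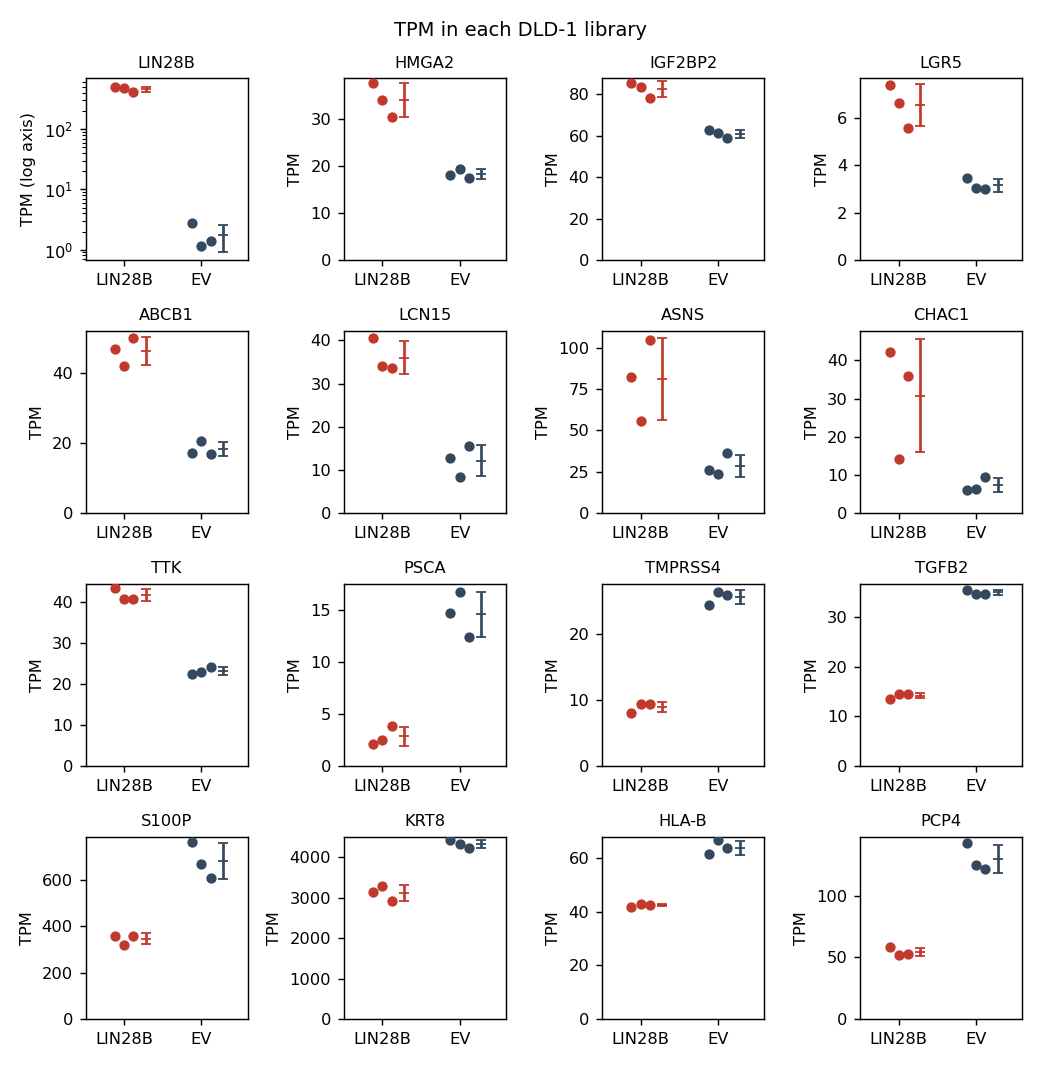
TPM (vertical axes) of 16 genes in each LIN28B (red) and EV (dark) library of DLD-1, where 1 point is 1 library and the bar beside the points is the mean with the SD (n = 3 each). The axis is logarithmic for LIN28B only. The groups do not overlap for any gene drawn, as for nearly all called genes. CHAC1 ranges from 14.1 to 42.3 TPM among LIN28B libraries.

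Several keratin and S100 mRNAs fell. Of 11 keratins tested, 5 were called lower (45.5%, beside 1.76% of all genes) and 1 higher, and the median was -0.39. KRT8 had 3149, 3301 and 2920 TPM in LIN28B libraries, against 4432, 4338 and 4241 TPM in EV libraries (log2 change -0.48 ± 0.0768 SE; limma, adjusted p = 0.00271). Its partner KRT18 fell by 0.34 and KRT19 by 0.43 on the log2 scale. The colorectal epithelial markers, which include these 3 keratins, summed to 9312 to 10076 TPM in LIN28B libraries and 12538 to 12803 TPM in EV libraries. Without the 3 keratins the sum was 1485 to 1580 TPM in LIN28B libraries and 1607 to 1762 TPM in EV libraries, while VIL1, a microvillus protein, rose (log2 change 0.84; limma, adjusted p = 0.0156), a call lost without LIN28B replicate 1 or 2 or EV replicate 2 or 3. The count of keratins called lower was 3, 3 and 2 without LIN28B replicate 1, 2 or 3, and 3, 3 and 4 without EV replicate 1, 2 or 3.

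Of 13 S100 genes, 6 were called lower (46.2%, beside 1.76% of all genes) and 0 higher, with a median of -0.37. S100A6 had 1244, 1266 and 1305 TPM in LIN28B libraries, against 2289, 2102 and 2331 TPM in EV libraries (-0.82 ± 0.105 SE, log2; limma, adjusted p = 0.000608). S100P had 360, 319 and 358 TPM in LIN28B libraries, against 763, 667 and 609 TPM in EV libraries (-0.97 ± 0.14 SE, log2; limma, adjusted p = 0.00119). The members were not uniform: S100A10 and S100A11 had log2 changes of 0.03 and -0.01. Leaving out any 1 of the 6 libraries left 4 S100 genes called. Outside the lists and chosen after their values were seen, the surface glycoprotein CD24 (log2 change -0.56) and the galectin LGALS3 (-0.40) were also called lower.

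Several genes of the TGF-beta and BMP pathways fell. Of 33 tested, 7 were called lower (21.2%, beside 1.76% of all genes) and 1 higher, with a median of -0.12. TGFB2 (chr1:218346235-218444619, plus strand), a secreted ligand, had 13.6, 14.5 and 14.5 TPM in LIN28B libraries, against 35.6, 34.8 and 34.7 TPM in EV libraries (-1.25 ± 0.138 SE, log2; limma, adjusted p = 0.000145). The ligand BMP4 had 679, 688 and 656 TPM in LIN28B libraries, against 878, 890 and 853 TPM in EV libraries (-0.37 ± 0.0663 SE, log2; limma, adjusted p = 0.00572). ID1, a target of BMP signalling that blocks helix-loop-helix factors, fell by 0.46 on the log2 scale and JUNB by 0.49. Chosen after their values were seen, ID2 and ID3 had log2 changes of -0.40 and -0.48, and CCN1 was the 1 called higher (0.65), a call lost without LIN28B replicate 1 or 3 or EV replicate 2. The receptors TGFBR1 and TGFBR2, also chosen after their values were seen, had changes of 0.22 and -0.21 and were not called. The count called lower was 6, 6 and 4 without LIN28B replicate 1, 2 or 3, and 4, 6 and 7 without EV replicate 1, 2 or 3.

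Some genes of antigen presentation fell. Of 20 MHC class I genes, 5 were called lower (beside 1.76% of all genes) and 0 higher. Without overlap, 14 of the 20 lay below EV, beside 11.1% of all genes, and the median was -0.27. HLA-B, which presents peptides to T cells, had 41.9, 42.8 and 42.6 TPM in LIN28B libraries, against 61.4, 66.6 and 63.6 TPM in EV libraries (-0.58 ± 0.128 SE, log2; limma, adjusted p = 0.0213). The immunoproteasome subunits PSMB8 and PSMB9 fell by 0.43 and 0.61 on the log2 scale, and HLA-C by 0.40. These calls were weak: 1, 2 and 0 genes passed without LIN28B replicate 1, 2 or 3, and 0, 1 and 0 without EV replicate 1, 2 or 3. Reads of HLA genes can be shared between loci. Of 35 interferon response genes, 3 were called lower (8.57%, beside 1.76% of all genes) and 0 higher, with a median of -0.17. The called genes were UBE2L6 (log2 change -0.81), MX2 (-0.74) and IRF9 (-0.44). Without LIN28B replicate 1, 2 or 3 the count was 2, 1 and 1, and without EV replicate 1, 2 or 3 it was 2, 1 and 1.

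The summed level of 9 immune markers was 3.25 to 4.61 TPM in LIN28B libraries and 6.52 to 7.87 TPM in EV libraries. Of the 9, 6 were under 1 TPM in all 6 libraries, and the T and B cell genes CD3E, CD3D and MS4A1 were at 0. CD68, a lysosomal protein, was called lower, with 2.7, 1.39 and 1.68 TPM in LIN28B libraries against 3.71, 6.10 and 5.01 TPM in EV libraries. Without CD68 the sum was 1.75 to 2.92 TPM in LIN28B libraries and 1.03 to 4.16 TPM in EV libraries, so the groups overlapped. CD14, the other immune marker tested, had a log2 change of 0.31 and was not called. The part of CD68 in the results was not tested. The fibroblast markers summed to 4.26 to 6.49 TPM in LIN28B libraries and 5.01 to 6.52 TPM in EV libraries, and the endothelial markers to 1.33 to 1.87 and 0.987 to 3.02 TPM in LIN28B and EV libraries.

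The series' title names the PI3K and AKT pathway, so its transcripts were read as a list. Of 38 tested components, 1 was called higher (2.63%, beside 1.80% of all genes) and 0 lower. The median was 0.02, as for all genes. The 1 called was the S6 kinase gene RPS6KB2, with a log2 change of 0.40 (limma, adjusted p = 0.0324). The RPS6KB2 call held without EV replicate 2 and was lost without any other library. PIK3CA, the catalytic subunit that alpelisib inhibits, had 12.6, 10.5 and 12 TPM in LIN28B libraries, against 12.3, 10.4 and 12.8 TPM in EV libraries, so the groups overlapped, and the log2 change was -0.01 ± 0.147 (SE). AKT1 had a change of 0.04 ± 0.1 (SE, log2). These libraries measure mRNA and not kinase activity. INSR and IRS2 of the insulin axis had changes of 0.07 and -0.14 and were not called. Of 13 genes of that axis, 1 was called higher (7.69%, beside 1.80% of all genes), the IGF-binding protein gene IGFBP2 (0.43). It was called without LIN28B replicate 3 and lost without any other library.

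Of the stem cell and Wnt genes, LGR5, the receptor that marks crypt base stem cells, had 7.39, 6.64 and 5.60 TPM in LIN28B libraries, against 3.46, 3.03 and 2.99 TPM in EV libraries. Its log2 change was 0.85 ± 0.113 (SE; limma, adjusted p = 0.000644), without overlap and called under all 15 alternatives. CDCA7 rose as well (0.95), CD44 fell (-0.57), and the other 19 of 22 genes were not called. The share called higher was 9.09%, beside 1.80% of all genes, and the share called lower 4.55%, beside 1.76%. The list median was 0.08, beside 0.02 for all genes, with 15 members positive and 7 negative. Chosen after their values were seen, AXIN2 and ASCL2 had log2 changes of -0.34 and -0.14, and LGR6 was called lower (-0.87). The CD44 call was lost without any 1 of the 6 libraries. Among epithelial and mesenchymal genes, 4 of 25 were called lower and 1 higher: ITGB6 (-0.78), CLDN4 (-0.43), MMP14 and, chosen after its value was seen, CLDN3 (-0.31) were lower, and TNC, a matrix glycoprotein, was higher (1.03). Each left-out library brought the count called lower to 2. CLDN1 and NOTCH3 had changes of 0.14 and -0.47 and were not called (limma, adjusted p = 0.81 and 0.203).

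The alpelisib libraries of the same LIN28B cells give the level of each list with the inhibitor present. Over all genes tested the median log2 difference from the EV mean was -0.15, -0.13 and -0.09 with alpelisib, against 0.07, 0.01 and -0.01 in untreated LIN28B libraries. For the ATF4 list the median log2 difference from the EV mean was -0.59, -0.49 and -0.46 with alpelisib, against 0.78, 0.28 and 0.73 in untreated LIN28B libraries. The mitosis list was at -0.37, -0.40 and -0.26 with alpelisib, against 0.48, 0.39 and 0.41 in untreated LIN28B libraries. The replication list, at 0.22, 0.13 and 0.30 with alpelisib, stayed above the EV libraries (0.05, 0.09 and -0.13). LIN28B mRNA itself was lower with alpelisib, at 150, 139 and 141 TPM. Genes differed one from another: HMGA2 was at 34.7, 35.9 and 38.5 TPM with alpelisib, LGR5 at 19.0, 18.1 and 17.7 TPM and TMPRSS4 at 7.90, 10.0 and 10.2 TPM, while PCP4, at 129, 141 and 134 TPM, lay within its EV range. PSCA, at 11.4, 9.96 and 11.2 TPM with alpelisib, lay between the untreated LIN28B and the EV libraries. The 2 LIN28B groups share the EV libraries as their baseline here, and these levels are given without a test.

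**Figure D5:**
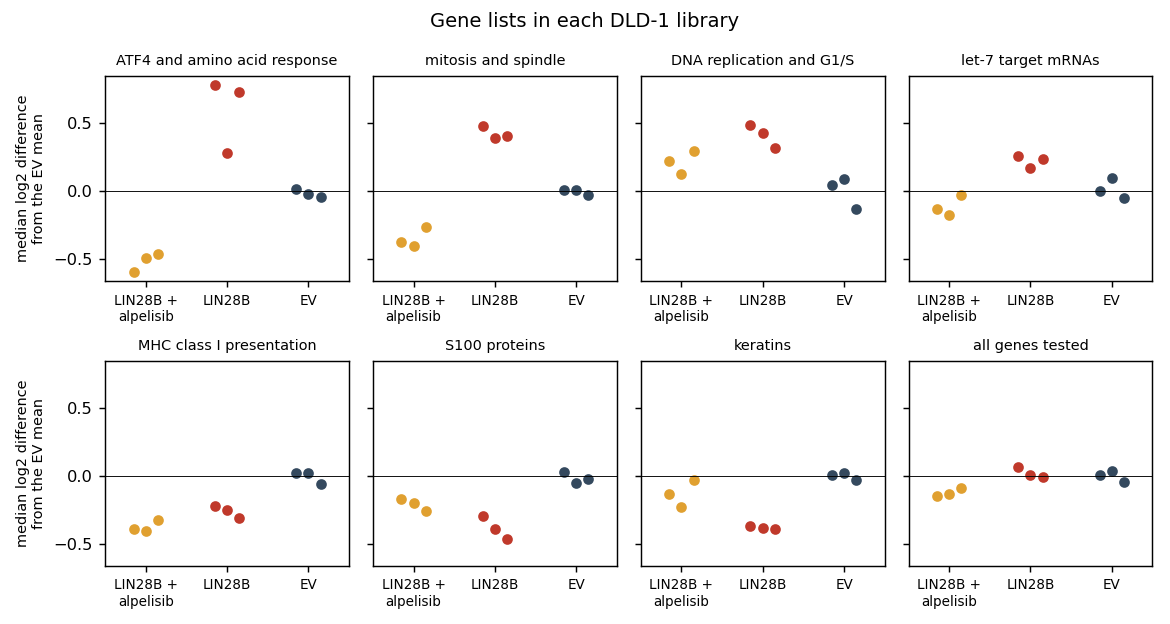
Median over the members of a gene list of the log2 difference from the EV mean (vertical axis, log2(TPM + 1) scale) in each DLD-1 library, for LIN28B with alpelisib, LIN28B and EV, where 1 point is 1 library. LIN28B libraries lie at 0.28 to 0.78 for the ATF4 list, with replicate 2 lowest, while alpelisib libraries lie at -0.59 to -0.46.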

How the data were processed

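The authors deposited 1 table of TPM, named so in its column headers. The submitters' processing notes name hg38, STAR 2.7.10, Picard, HTSeq and DESeq2, with no role or order. Which annotation, gene lengths and strand setting they used is not stated. Because TPM sums to a fixed total, library depth is lost and no count model or counting interval was used. LIN28B versus EV was tested with limma 3.58.1 (R 4.3.3, mean-variance trend) on values transformed as log2(TPM + 1), in 1 model of all 18 libraries in 6 groups, with 12 residual and 4.56 prior degrees of freedom. Two-sided p-values received Benjamini-Hochberg adjustment over 15194 genes. The alternatives, 15 in all, were other library sets, scalings, pseudocounts, filters, no trend, a replicate block and leaving out each library. The code was tested on simulated data.

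Named genes were the 15 largest called rises and falls without overlap, with a mean of 2 TPM or more in either group and no clone name, a fixed set, and up to 4 members of each list with the smallest p. Any other named gene was chosen after its values were seen. A few genes selected this way are left unreported. The genes, the lists and the comparison were chosen with earlier results of these data known. Lists are described by counts and medians, with no set test. Symbols came from the reference gene table (61757 of 61806 identifiers matched), coordinates and 3′ UTRs from GENCODE 29 (principal transcript), and sequences of microRNAs and promoters from RefSeq.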

Additional observations from a re-analysis of the deposited data

Results flagged for a closer look

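Of 22 genes looked up, the 5 that mark the comparison and the LIN28 and let-7 axis, 12 differed in LIN28B effect between DLD-1 and the libraries labelled LoVo (limma, test of the difference of the 2 log2 changes, adjusted over all genes tested). Of all 15194 genes, 7176 passed that test (47.2%). The data go against that label: over 18537 genes, Pearson's r of log2(TPM + 1) between LIN28B libraries labelled LoVo and EV libraries was 0.961 to 0.966 for DLD-1 EV and 0.89 to 0.918 for LoVo EV. The effect under the LoVo label and a difference between cell lines cannot be told apart.

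Given as DLD-1 minus LoVo label, the difference was 2.18 for HMGA2 (adjusted p = 2.26e-08), with changes of 0.85 in DLD-1 and -1.33 under the LoVo label. The other markers of the comparison differed by -1.37 for PSCA (adjusted p = 0.000846), -1.29 for TMPRSS4 (3.44e-05) and -1.02 for ASNS (0.00438). The markers were chosen with earlier results known, and their DLD-1 change is part of the difference tested. Their p-values are therefore not independent of that choice. ASNS rose in both, by 1.44 in DLD-1 and 2.46 under the LoVo label. In the let-7 and LIN28 axis the difference was -1.09 for DICER1, -0.63 for TUT7, -0.64 for AGO3, -0.55 for TARBP2, -1.18 for PRKRA, -0.82 for KHSRP, -0.85 for MBNL1 and -1.37 for MIRLET7BHG (limma, adjusted p between 9.84e-06 and 0.0191). Each group here held 3 libraries, too few for a test of outlying samples.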

How the results depend on the processing

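For 202 named genes and 15 alternatives, 2525 pairs of a gene and an alternative kept their side of the threshold, 428 lost the call, 44 gained it and 0 reversed. The 274 genes called higher became 157 with no filter on low values, which raises the number of tests, and 90 with the replicate block. Those called lower, 268, became 122 with the block. Leaving out 1 library gave 65 to 121 higher and 110 to 138 lower. The labels do not say whether replicate numbers pair the samples. Deviations of same-numbered libraries correlated at -0.0218, -0.0764 and 0.143, and those of differently numbered ones at -0.181 to 0.205. So few values cannot settle whether samples were paired. The fit of the 6 libraries alone called 277 higher and 276 lower, and 382 of the 542 genes were called in both fits. Median-of-ratios scaling called 318 higher and 364 lower. The unknown depth limits low genes most, since their noise cannot be separated from counting error.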

Other observations

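Histone mRNAs and neighbouring genes were looked at after the values were seen. Replication-dependent histone transcripts mostly end in a stem-loop and not in a poly(A) tail, so oligo(dT) libraries hold few of them. Of 48 such genes tested, 7 were called higher (14.6%, beside 1.80% of all genes) and 0 lower. A positive change was seen in 43, and the median log2 change was 0.80. Their median level was 6.54 TPM in LIN28B libraries and 3.28 TPM in EV libraries, and 3.37 TPM in LIN28B libraries with alpelisib. H2BC18 had 7.40, 9.53 and 11.4 TPM in LIN28B libraries, against 5.54, 1.96 and 1.13 TPM in EV libraries. Reads can be shared between near-identical histone genes, and the part of poly(A) selection in this shift was not tested.

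Runs of at least 3 called genes with gaps of no more than 500000 bases numbered 11 among genes called lower and 3 among genes called higher, and were not tested. On chromosome 1, S100A9, S100A6, S100A4, S100A16 and S100A14 were called lower among 8 tested genes. On chromosome 19, CYP4F3, CYP4F12, CYP4F11 and the long RNA UCA1 were 4 of 5 tested genes, with a median log2 change of -0.67, and IGFL1, IGFL1P1 and IGFL2-AS1 were 3 of 4. On chromosome 17, ARHGAP27, PLEKHM1, LRRC37A4P and DND1P1 were called lower among 9 tested genes, with a median of -0.78. ARHGAP27 had 72.4, 70.2 and 75.2 TPM in LIN28B libraries, against 120, 116 and 123 TPM in EV libraries (limma, adjusted p = 1.88e-05). LRRC37A4P and DND1P1 are pseudogenes, so their reads can be shared with other copies.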
